A study of Mus musculus with 38 samples.

Results

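CTCF sites that were found in mouse thymocytes and not in mouse skin were examined. The members are peaks of the thymocyte CTCF urea ChIP-seq list on chromosomes 1 to 19 and X that share no base pair with any peak of the skin CTCF urea ChIP-seq list. There were 3332 such sites among 20219 thymocyte CTCF peaks on these chromosomes, which is 16.5%, and the other 16887 peaks shared at least 1 bp with a skin peak. The members were chosen by these 2 measured peak lists, so their number and their enrichment are a description. They are called thymocyte-only sites here and the others shared sites. Only 1 CTCF list per cell type was used, and a peak missing from the skin list was not called there, which does not show that CTCF was absent.

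Both CTCF lists come from wild-type (Satb1+/+) C57BL/6 mice and were made with the same commercial antibody on chromatin purified through urea, a method in which crosslinked DNA is freed of all but its directly bound proteins. The thymocyte sample, labelled thymus, is given as P13 (day 13 after birth) in its age field and 6 weeks in its title. The skin sample is labelled P13 and its protocol names epidermal keratinocytes of P5 (day 5) pups. SATB1 lists of the same strain and genotype were set beside them. They comprised thymocytes by urea ChIP-seq (2 lists, 1 home-made antibody used at 4 and 2 µl), thymocytes by standard ChIP-seq (2 lists, which differ in antibody and in sonication of 15 and 150 s), skin and brain by urea ChIP-seq (2 lists each), and the BUR reference map, in which purified genomic DNA was bound by SATB1 protein in vitro. The thymocyte and skin SATB1 samples are labelled P13 (the first standard sample also 6 weeks in its title) and the brain samples 5 and 6 weeks, while the protocols name P5 for skin and P13 for brain. Tissue, age and library cannot be told apart between the thymocyte and skin CTCF lists.

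CTCF is a zinc finger protein that binds a long motif, and it stops the loops that cohesin extrudes along the chromosome, so that it marks loop anchors and domain borders. Most CTCF sites are held in common by many cell types, and the sites that differ are often weaker or placed near promoters and enhancers. In developing T cells CTCF takes part in folding the T-cell receptor loci during V(D)J recombination. SATB1 is a chromatin organizer that is abundant in thymocytes. It binds base-unpairing regions (BURs), AT-rich stretches whose strands separate readily, and standard ChIP-seq also recovers it at open chromatin.

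The sequences that set thymocyte-only sites beside shared sites are given first. The CTCF core was searched as CCANNAGNNGGC on both strands of each peak (N is any base). It was present in 1175 of 3332 thymocyte-only sites (35.3%), beside 44.8% of all thymocyte CTCF peaks and 46.7% of shared sites. Within 100 bp on either side of the summit, the point of highest signal, it was in 34.7% of thymocyte-only and 45.9% of shared sites. Of 255564 windows of the same length laid every 10 kb along the genome, 1.08% held it. The core closest to the summit was then read 5′ to 3′ with 15 bases on either side, and the most frequent base at each position was taken. These lines are position-wise summaries and not single sites. Capitals mark the core.

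Thymocyte-only sites (1175 cores): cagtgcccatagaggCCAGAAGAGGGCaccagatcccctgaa
Shared sites (7889 cores): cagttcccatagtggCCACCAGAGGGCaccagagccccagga
Genome windows (2761 cores): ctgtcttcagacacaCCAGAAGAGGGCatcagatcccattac

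The lines differ inside the core at its free positions. At position 4, counted from 1 at the first C, 72.3% of the thymocyte-only cores had G and 20.9% had C, while shared cores had G in 46.3% and C in 49.8%. At position 5, A was found in 55.6% of thymocyte-only and 27.6% of shared cores. The single word CCAGAAGAGGGC made up 475 of the 1175 thymocyte-only cores (40.4%), 13.0% of the shared cores and 35.7% of the cores in the genome windows. It was the most frequent word in each of these 3 sets. By contrast, CCACCAGGGGGC made up 2.55% of thymocyte-only cores and 6.64% of shared cores.

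The bases beside the core differed as well. The letters CAGATC followed within 15 bases in 18.0% of thymocyte-only, 5.77% of shared and 19.4% of genome cores. The letters GAGG directly before the core were present in 14.1%, 6.40% and 5.25% of the same sets. Copies of the B2 family of short interspersed repeats are known to carry CTCF motifs in the mouse. No repeat annotation was used here, and whether these cores lie in such repeats was not tested.

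Among 1502 thymocyte CTCF peaks with CCAGAAGAGGGC, 31.6% were thymocyte-only, against 9.26% of 7562 peaks with another core. Because weak peaks were more often thymocyte-only (their enrichment is given further on), the peaks were split into 4 groups of equal size by fold enrichment. In the lowest group 48.7% of peaks with the word and 23.6% of those with another core were thymocyte-only. In the highest group these shares were 4.97% and 1.56%. The word went with a higher thymocyte-only share in each of the 4 groups. Thymocyte-only sites with the word were rarely near starts (4.63%) and had a median AT content of 56.2%, against 51.2% for those with another core. Shared sites were alike, with 4.48% of those with the word near starts and median AT contents of 55.2% and 50.2%. How uniquely reads map at such words in each library was not tested.

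**Figure D1:**
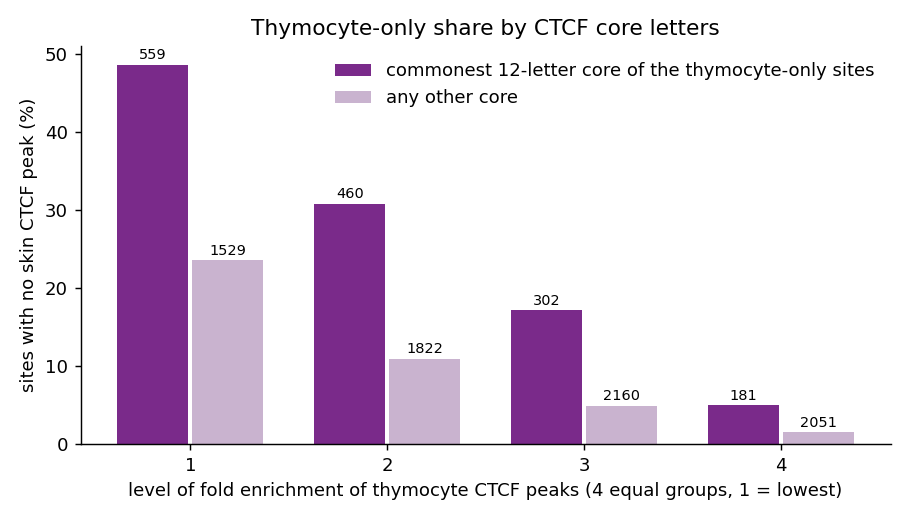
Share of thymocyte CTCF peaks with a core motif that have no skin CTCF peak (percent), in 4 groups of equal size by fold enrichment; numbers above the bars are peaks. Dark bars are peaks whose core is the word most frequent among thymocyte-only sites, which fall from 48.7% to 4.97%, and light bars are peaks with any other core, which fall from 23.6% to 1.56%.

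Cores at thymocyte-only sites near genes with known roles in T cells are shown for comparison, since these sites are described further on. Positions are NCBI37/mm9, the strand is that of the core, and capitals mark it.

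Prkcq, intron, chr2:11188101-11188142, minus strand: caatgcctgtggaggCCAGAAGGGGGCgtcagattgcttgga
Ikzf3, intron, chr11:98401814-98401855, minus strand: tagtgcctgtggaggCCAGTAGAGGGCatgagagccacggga
Rag1, intron, chr2:101486217-101486258, minus strand: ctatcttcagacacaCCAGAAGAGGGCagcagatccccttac
Satb1, intron, chr17:51917399-51917440, minus strand: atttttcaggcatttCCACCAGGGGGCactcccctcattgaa
Ubash3a, intron, chr17:31373033-31373074, plus strand: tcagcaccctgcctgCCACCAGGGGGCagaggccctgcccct
Ccr4, upstream, chr9:114409439-114409480, plus strand: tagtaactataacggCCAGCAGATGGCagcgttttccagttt
Tespa1, upstream, chr10:129750745-129750786, plus strand: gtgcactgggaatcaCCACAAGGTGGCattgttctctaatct

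The Rag1 site carries the word that was most frequent among thymocyte-only cores, with CAGATC after it. This word made up 40.4% of thymocyte-only, 13.0% of shared and 35.7% of genome cores. CAGATC followed in 18.0%, 5.77% and 19.4% of the same sets, so neither sets the Rag1 core apart from genome cores. The letters before the Rag1 core are closer to the genome line than to the thymocyte-only line. The Prkcq and Ikzf3 sites share GAGG before a core that differs from the word at Rag1. The Satb1 and Ubash3a sites carry the word that was less frequent among thymocyte-only than among shared cores. The core lay close to the summit as a rule, at a median of 19.5 bp in thymocyte-only and 17.5 bp in shared sites, and within 50 bp in 85.5% and 90.8% of those with a core.

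Thymocyte-only sites had low enrichment. Fold enrichment, the peak caller's ratio of signal at the summit to local background, had a median of 6.10 in thymocyte-only sites and 8.27 in shared sites. The median −log10 q-value was 9.71 against 18.1 and the median peak length 224 bp against 284 bp. The thymocyte-only share fell from 40.6% in the lowest of 10 groups of equal size by fold enrichment (821 of 2023 peaks) to 2.87% in the highest (58 of 2022), with a fall at every step. The skin list was longer, with 31509 peaks in all against 20323 in thymocytes, and its median peak length was 393 bp. Weaker binding in all cells and binding in fewer of the cells cannot be told apart in such lists, and the lists give no read depth.

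**Figure D2:**
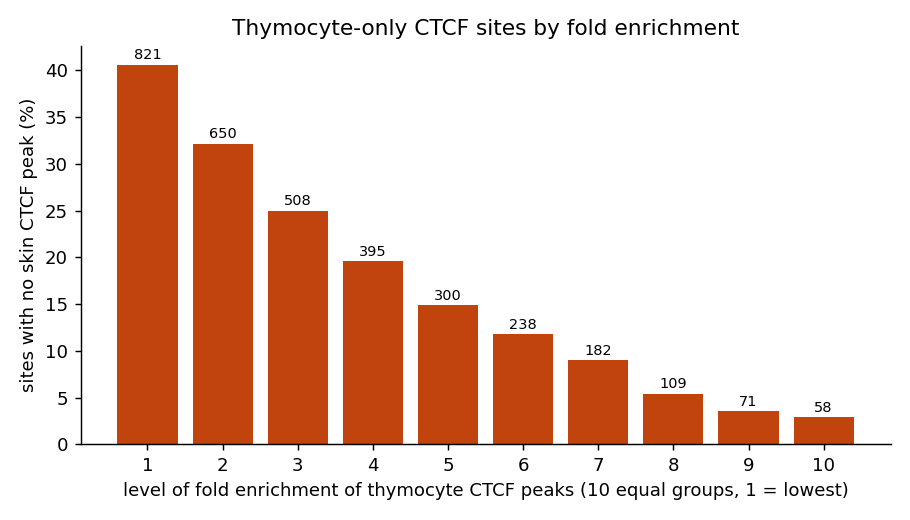
Share of thymocyte CTCF peaks with no skin CTCF peak (percent, vertical axis) in 10 groups of equal size by fold enrichment (horizontal axis, 1 is the lowest); numbers above the bars are thymocyte-only sites. The share falls from 40.6% to 2.87%.

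The border of the rule is shown by the sites on either side of it. The 3 thymocyte-only sites closest to a skin peak lay 4, 18 and 19 bp from it. The second of these, chr4:155400113-155400286, was 87 bp from the start of Tnfrsf18, a TNF receptor family gene known as GITR, and had a fold enrichment of 6.10. The other 2 are on chromosome 18 and had fold enrichments of 4.50 and 2.94. The 3 shared sites with the smallest overlap shared 6, 7 and 8 bp with a skin peak. They lay at chr12:116876983-116877156, nearest to the start of Ighv1-73, at chr8:63853297-63853508 inside Sh3rf1 and at chr2:152656722-152657212 at the start of Bcl2l1, with fold enrichments of 4.82, 7.39 and 6.49. Few members were near the border, since 233 of 3332 (6.99%) had a skin peak within 1 kb and the median distance to the nearest skin peak was 13.8 kb.

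Thymocyte-only sites were placed at gene starts more often than shared sites. Of the members, 722 (21.7%) had their summit within 1 kb of the start of a protein-coding transcript, beside 13.0% of all thymocyte CTCF peaks, 11.2% of shared sites and 2.3% of genome positions. These 722 sites had 709 nearest genes. A further 3.84% lay in exons, 36.5% in introns and 38.0% between genes, while shared sites had 4.14%, 38.0% and 46.7%. Put the other way, 27.5% of the CTCF peaks at starts were thymocyte-only, against 15.5% in exons, 16.0% in introns and 13.8% between genes. The higher share at starts held in each of the 4 fold enrichment groups, from 19.5% against 8.01% in the lowest to 39.0% against 18.8% in the highest.

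**Figure D3:**
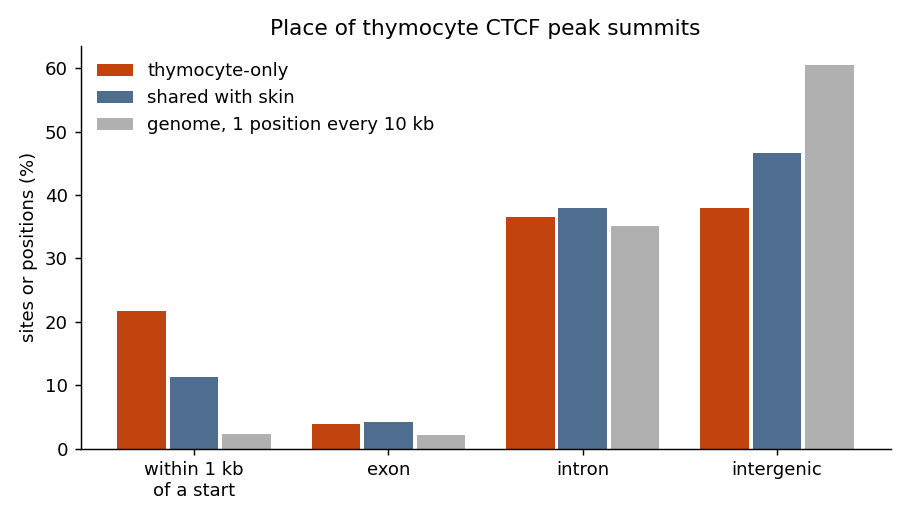
Place of the summits of thymocyte-only sites, shared sites and genome positions taken every 10 kb (percent of sites or positions, vertical axis) relative to protein-coding genes. Thymocyte-only sites stand at 21.7% within 1 kb of a start, shared sites at 11.2% and genome positions at 2.3%.

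The sites at starts were rich in CpG and poor in AT. Their median AT content within 100 bp of the summit was 35.8% and their median number of CpG dinucleotides 14, and 11.6% of them held the core motif. Thymocyte-only sites away from starts had a median AT content of 51.7%, a median of 2 CpG dinucleotides and the core motif in 41.8%. Shared sites at starts had a median AT content of 39.3% and the core in 27.5%, and shared sites away from starts 50.7% and 49.2%. The core was thus less frequent in thymocyte-only sites in both places.

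AT content over all sites had the same median in thymocyte-only and shared sites, 50.2%, which is below the 58.2% of genome windows. The spread was wider among thymocyte-only sites, where 18.9% lay under 40% AT and 9.72% over 60% AT, against 11.2% and 8.84% of shared sites. The 10th percentile was 33.3% in thymocyte-only and 39.3% in shared sites, and the 90th percentile was 59.7% in both.

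Letters of other T-cell factors were searched in the same windows around the summit on both strands. TGTGGT, bound by Runx proteins, was in 21.5% of thymocyte-only sites away from starts, 17.2% of such shared sites and 13.9% of genome windows. Over all sites it was in 19.2% and 16.4%. In whole peaks, which are longer in shared sites, it was in 21.3% and 21.6%. CCGGAA, an ETS motif, was in 12.5% of thymocyte-only sites at starts and 13.8% of shared sites at starts, against 3.07% and 3.33% away from starts and 1.53% of genome windows. CTTTGAA, bound by TCF1 and LEF1, was in 3.60% of thymocyte-only, 3.87% of shared sites and 5.36% of genome windows. CAGCTG, an E-box, was in 11.2%, 11.6% and 7.30%. At starts it was in 12.3% of thymocyte-only and 9.58% of shared sites, and away from starts in 10.9% and 11.9%. These short words are matches and not shown to be bound, and the share in thymocyte-only sites was at most 21.5% in the sets named.

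T-cell genes had thymocyte-only sites more often than protein-coding genes as a whole. In 5 lists of genes with known roles in T cells, 27 of 79 genes (34.2%) had a thymocyte-only site in their annotated span or within 10 kb of it, beside 13.6% of 22350 protein-coding genes. Shared sites were found at 69.6% of the T-cell genes and 46.4% of all genes. The median gene length was 25.5 kb in the T-cell lists and 15.4 kb in all genes, so that longer spans bear on these shares. Among CTCF peaks counted once for each gene, 34 of 116 at T-cell genes (29.3%) were thymocyte-only against 16.9% at all genes. Per Mb of span, thymocyte-only sites stood at 5.32 in the T-cell lists and 2.41 in all genes, and shared sites at 12.8 and 11.8. Expression was not measured in these lists, and sites within 10 kb of a gene are not shown to act on it.

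The lists differed in number. Thymocyte-only sites were near 3 of 5 genes of the T-cell receptor (TCR) and CD3 complex, 1 of 3 recombinase genes and 5 of 23 coreceptor and surface genes. They were near 11 of 31 T-cell transcription factor genes and 7 of 17 TCR signalling genes. Of 45 keratinocyte genes 6 had one, and of 18 genes of B cells, myeloid cells and thymic stroma 2 did, shares of 13.3% and 11.1% that lie near the 13.6% of all genes. In the keratinocyte list 3 of the 8 sites lay in the annotated span of Fgfr2, which runs over 3009 kb.

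**Figure D4:**
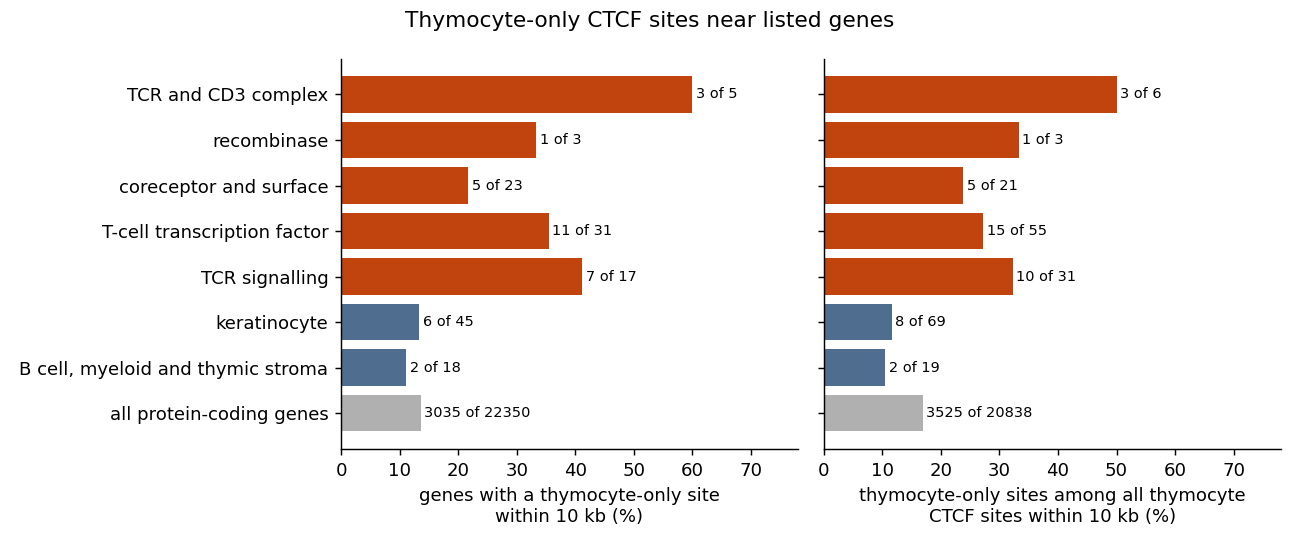
Left, share of genes in each list with a thymocyte-only site in their span or within 10 kb (percent). Right, share of thymocyte-only sites among all thymocyte CTCF sites there (percent). Numbers beside the bars are counts. The 5 T-cell lists range from 21.7% to 60% on the left, and the keratinocyte list, the list of other cells and all protein-coding genes from 11.1% to 13.6%.

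Genes of the receptor complex and the recombinase had no more than 1 thymocyte-only site each. Cd3e, which encodes the epsilon chain that pairs with the TCR, had its only CTCF site within 10 kb at chr9:44823025-44823334, 5506 bp upstream of its start, with a fold enrichment of 8.99. Cd3g, the gamma chain, had one at its far end, in an untranslated region of an exon, at chr9:44777643-44777816 with a fold enrichment of 5.26. Cd247, the zeta chain, had one 8648 bp upstream of its start with a fold enrichment of 5.83, only 291 bp from a skin peak. The Rag1 site, at chr2:101486102-101486345 in an intron and also inside B230118H07Rik, had a fold enrichment of 5.64. Rag1 encodes a subunit of the recombinase that cuts the receptor loci.

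Among the 25 T-cell gene sites named, the 3 farthest from a skin peak were at transcription factor genes. The Ikzf1 site lay 62 bp from a start of this gene, which encodes Ikaros, in an untranslated exon region, with a fold enrichment of 8.35 and the nearest skin peak 102 kb away. Gata3, needed for T-cell commitment and CD4 cells, had 2 thymocyte-only and no shared sites. The stronger was 1192 bp from its start with a fold enrichment of 8.60 and lay 93.2 kb from the nearest skin peak. Runx1 had a site 2099 bp upstream with a fold enrichment of 7.28 and the nearest skin peak 129 kb away. Ikzf1 too had 2 thymocyte-only and no shared sites, whereas Runx1 had 2 and 1. Eomes, a T-box factor of cytotoxic cells, had a site in a coding exon, 412 bp from the start, with a fold enrichment of 8.97. Tox, Rora, Ikzf3 and Satb1 itself had intronic sites with fold enrichments of 6.20, 6.74, 5.78 and 5.04. The nearest skin peak lay 10.2, 8.53, 5.55 and 2.44 kb away. These 4 genes had 5, 10, 3 and 11 skin CTCF peaks within 10 kb of their span, beside 2, 6, 1 and 1 shared sites.

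The Prkcq, Eomes and Gata3 peaks, the highest at T-cell genes that are no longer than 300 bp, are printed whole on the plus strand to show a site with a core among these genes and those without. Capitals mark a core.

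Prkcq, intron, chr2:11188008-11188269: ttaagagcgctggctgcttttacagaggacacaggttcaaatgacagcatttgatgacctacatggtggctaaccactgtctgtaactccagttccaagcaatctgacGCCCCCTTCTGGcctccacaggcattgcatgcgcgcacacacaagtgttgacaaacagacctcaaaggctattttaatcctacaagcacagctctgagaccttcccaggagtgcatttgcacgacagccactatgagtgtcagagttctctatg
Eomes, coding exon, chr9:118388251-118388500: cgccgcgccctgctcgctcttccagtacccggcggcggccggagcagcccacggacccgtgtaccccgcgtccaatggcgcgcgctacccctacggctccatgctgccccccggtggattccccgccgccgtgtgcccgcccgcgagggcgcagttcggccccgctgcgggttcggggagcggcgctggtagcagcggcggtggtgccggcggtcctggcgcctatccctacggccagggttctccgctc
Gata3, intron, chr2:9801283-9801555: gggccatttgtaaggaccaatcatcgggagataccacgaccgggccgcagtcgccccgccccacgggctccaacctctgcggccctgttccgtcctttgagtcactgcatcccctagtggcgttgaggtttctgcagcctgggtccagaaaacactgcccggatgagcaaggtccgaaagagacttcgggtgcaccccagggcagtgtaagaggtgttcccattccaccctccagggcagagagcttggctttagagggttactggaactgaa

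The AT content of these peaks was 50.8%, 23.6% and 40.3%. The Eomes and Gata3 peaks hold no core in the letters searched. They stand for the CpG-rich kind of thymocyte-only site, and the Prkcq peak for the kind with a core.

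Signalling genes carried intronic and upstream sites. Prkcq, which encodes protein kinase C theta downstream of the TCR, had the strongest of all T-cell gene sites with a fold enrichment of 9.63, and the nearest skin peak was 21.8 kb away. Rasgrp1, a Ras activator, had a site 7 bp from its start with a fold enrichment of 4.64, and a skin peak lay 235 bp away. Tespa1, upstream by 9195 bp, stood at 8.67, and Plcg1 and Ubash3a at 5.18 and 5.46.

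Among surface genes, Ccr7, Ccr4, Ccr9 and Cd5 had one site each. Ccr7, a homing receptor, had it 196 bp from its start with a fold enrichment of 6.10. The Ccr9 site, with 4.82, lay inside Ccr9 and 696 bp from the start of Lztfl1, and the Tcf3 site, with 5.80, lay 837 bp from the start of Uqcr11, so that the closest start belonged to another gene in both. Cd5 and Notch3 had the lowest values, 4.50 and 4.17. Of the 27 T-cell gene sites, 8 were within 1 kb of a start and 10 had a core, beside 21.7% and 35.3% of all thymocyte-only sites. These 27 are the strongest site of each gene, and the share at starts was higher at stronger sites.

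The T-cell receptor loci held thymocyte-only sites along their V segments. Across the annotated segments of 3 loci and 10 kb on either side there were 34 thymocyte CTCF peaks, and 16 of them (47.1%) were thymocyte-only, beside 16.5% of all thymocyte CTCF peaks. The Tcra/Tcrd locus (chr14:53047603-54842772) had 11 thymocyte-only and 13 shared sites, the Tcrb locus (chr6:40841295-41508370) 4 and 4, and the Tcrg locus (chr13:19269911-19444212) 1 and 1. Skin CTCF peaks were called in these loci too, 28, 5 and 1 of them, beside 24, 8 and 2 thymocyte CTCF peaks. Fold enrichment of the 16 sites ran from 4.50 to 11.6 with a median of 6.74, above the 6.10 of all thymocyte-only sites. Their AT content ran from 46.8% to 67.2% with a median of 54.2%, and 7 held a core, beside 9 of the 18 shared sites. The median distance to the nearest skin peak was 19.6 kb, and 5 of the 16 had a skin peak within 5 kb.

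In Tcrb the strongest site, chr6:40996580-40996877 with a fold enrichment of 11.6, lay 846 bp from Trbv2, and the site at chr6:41068242-41068515 with 8.03 lay 492 bp from Trbv12-2. The remaining pair, near Trbv1 and Trbv12-1, stood at 7.06 and 8.56. In Tcra/Tcrd the strongest, at chr14:54157606-54157856, had 10.8 and lay 31783 bp from Trav10, the nearest segment. Those at chr14:53200004-53200327, chr14:53257930-53258173 and chr14:54500993-54501177 lay 160, 110 and 137 bp from Trav3-1, Trav6-1 and Trdv1, with fold enrichments of 7.71, 4.82 and 5.46. The Tcrg site, at chr13:19328327-19328583 with 7.06, lay 6262 bp from Tcrg-V3. V segments of these loci resemble each other, so that some reads there may not map uniquely. The paper kept only unique matches for urea ChIP-seq, and how this bears on the sites called there was not tested.

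Standard SATB1 ChIP-seq overlapped a large share of thymocyte-only sites, with lists that differed from each other. The first list overlapped 1611 sites (48.3%, beside 52.8% of all thymocyte CTCF peaks) and the second 842 (25.3%, beside 23.8%). The mean was 36.8% ± 16.3 (SD, n = 2 lists) in thymocyte-only and 38.6% ± 21.3 (SD, n = 2) in shared sites. The difference between thymocyte-only and shared sites was −5.29 percentage points in the first list and 1.81 in the second, so the lists disagree in sign and the mean of −1.74 ± 5.02 (SD, n = 2) is within their spread. Both standard lists had a peak at 794 thymocyte-only sites (23.8%, beside 22.2% of all thymocyte CTCF peaks), at least 1 list at 49.8% (beside 54.3%) and neither at 1673 (50.2%).

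Place and enrichment moved with this overlap. At starts, 88.5% and 59.4% of thymocyte-only sites were in the first and second standard lists, whereas in introns 32.6% and 11.7% were. Of the 794 sites in both lists 53.9% were at starts, and of the 1673 in neither 4.90% were. The sites in both lists had a median AT content of 41.3% and a core in 17.0%, and those in neither 52.7% and 45.7%. The overlap also rose with fold enrichment, from 39.0% and 18.7% in the lowest of the 4 fold enrichment groups to 84.7% and 54.8% in the highest.

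Within the 4 fold enrichment groups the sign of the difference was the same in both lists. Thymocyte-only sites exceeded shared sites by 8.03, 7.67, 11.0 and 6.96 points in the first standard list from the lowest to the highest group, and by 6.82, 11.1, 16.6 and 13.6 points in the second. The gap between the sets was larger at starts than away from them in the lower 3 groups and smaller in the highest, in both lists. In the lowest group 83.5% of thymocyte-only and 64.3% of shared sites at starts were in the first list, and away from starts 28.2% and 28.0%. In the second list these values were 51.0% and 39.1% at starts and 10.9% and 9.52% away from them. In the highest group the first list held 97.1% and 95.3% at starts and 76.9% and 73.7% away from them, and the second 82.6% and 80.5%, and 37.0% and 32.1%. Away from starts the mean difference over the lists was 0.75 ± 0.86, 2.25 ± 3.60, 6.62 ± 3.18 and 4.05 ± 1.31 points (SD, n = 2 lists) in the 4 groups. The mean was larger than the SD of the lists in the upper 2 of these groups and smaller in the lower 2. Sites are not replicates, so no test was made.

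**Figure D5:**
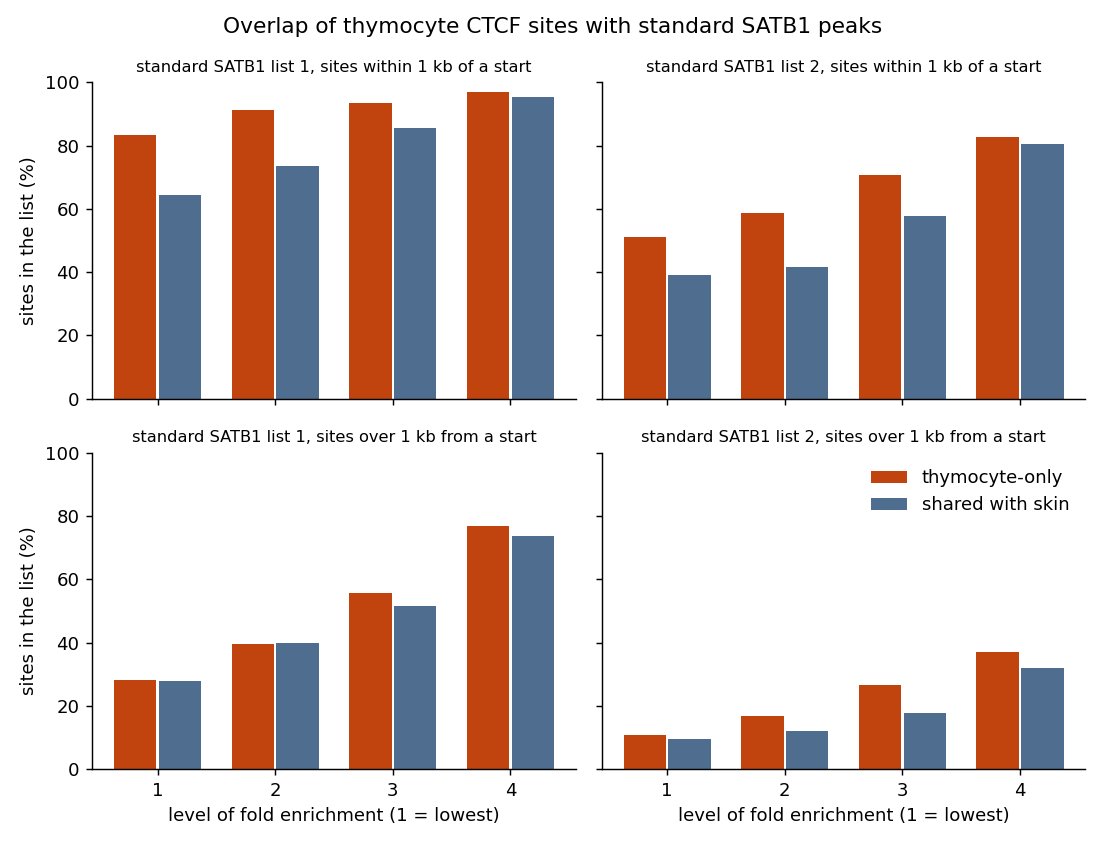
Share of thymocyte CTCF sites that overlap each standard SATB1 list (percent, vertical axis), in 4 groups by fold enrichment (horizontal axis, 1 is the lowest), for sites within 1 kb of a start (top) and farther away (bottom). At starts in the lowest group thymocyte-only sites stand at 83.5% and 51.0% and shared sites at 64.3% and 39.1%, and away from starts the bars of the first list are level at 28.2% and 28.0%.

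At T-cell genes 18 of the 27 sites were in the first standard list, 7 were in both and 9 in neither, beside 48.3%, 23.8% and 50.2% of all thymocyte-only sites. These 27 are the strongest site of each gene among 34, and the overlap was higher at stronger sites. Among those in both lists were the sites at Gata3, Ikzf1, Ccr7, Tespa1, Rasgrp1 and Cd5. Among those in neither were the sites at Runx1, Rora, Ikzf3, Satb1, Cd3g, Plcg1, Ubash3a and Notch3. In the TCR loci 14 of the 16 thymocyte-only sites were in at least 1 standard list and 7 in both, beside 49.8% and 23.8% of all thymocyte-only sites, and of the 18 shared sites there 14 and 9 were.

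Urea SATB1 ChIP-seq overlapped few thymocyte-only sites. The lists held 31 (0.930%, beside 1.22% of all thymocyte CTCF peaks) and 32 sites (0.960%, beside 1.17%), a mean of 0.945% ± 0.021 (SD, n = 2), against 1.24% ± 0.04 (SD, n = 2) of shared sites. The difference was larger than these SDs, but each pair of urea SATB1 lists carries 1 sample number in its titles, so that the SD may be technical only. Brain SATB1 urea lists held 1.47% ± 0.04 (SD, n = 2) of thymocyte-only and 1.74% ± 0.14 (SD, n = 2) of shared sites. Skin SATB1 urea lists held 8 thymocyte-only sites each, 0.240%, and 1.10% ± 0.01 (SD, n = 2) of shared sites, but these lists come from the tissue whose CTCF list defined the members. BURs overlapped 87 thymocyte-only sites (2.61%, beside 2.57% of all thymocyte CTCF peaks).

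The 25 thymocyte-only sites in both thymocyte urea lists were mostly AT-rich and found in brain as well. Of them, 23 were also in both brain SATB1 lists, 13 were on a BUR and 6 held a core. Over all thymocyte-only sites these shares were 1.17%, 2.61% and 35.3%. The median AT content of the 25 was 63.2%. Presence in brain is not particular to them, since the paper reports it for nearly all BURs that SATB1 bound in thymocytes. Among the AT-rich ones were chr9:3015932-3016354 (63.2%) and chr9:3036310-3036583 (63.7%), which lie in the densest bin described below. The 3 with the highest fold enrichment had AT contents of 40.8%, 46.8% and 51.2%. Of the 25, 2 were in both standard lists and 16 in neither, beside 23.8% and 50.2% of all thymocyte-only sites. None of the T-cell gene sites and none of the TCR locus sites was in a urea SATB1 list of thymocytes. The 87 sites on BURs had a median AT content of 58.2% and a core in 60.9%, and 44 were in introns, 38 between genes and 3 at starts.

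The 10 thymocyte-only sites with the highest fold enrichment held no core, and 3 of them were in both urea SATB1 lists of thymocytes and of brain. These 3 were chr10:121200282-121200461 between genes with 36.0, chr17:3379809-3379985 in an intron of Tiam2 with 30.7 and chr7:97590483-97590659 at 648 bp from the start of Crebzf with 28.1, each 177 to 180 bp long. The thymocyte-only sites in both thymocyte urea lists had a median fold enrichment of 6.10 as a set, equal to the median of all thymocyte-only sites. At the 3 sites named here, peaks were also called in SATB1 lists of 2 tissues. Whether this has a part in their high values was not tested. The next 2 sites were in both standard lists and no urea list. They lay in introns of Prim2 (chr1:33622608-33622961, 26.3) and Lamb3 (chr1:195156312-195156803, 20.5). The Lamb3 gene is a keratinocyte gene that encodes a laminin chain.

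The other 5 lay near Cdc37 (16.6), Trib2 (16.2), Mmaa (16.2), Tenc1 (16.0) and Cd48 (15.8). The Trib2 site was 278 bp, the Mmaa site 130 bp and the Tenc1 site 84 bp from the start, with AT contents of 26.9%, 22.9% and 19.9%. Cd48, which encodes a surface receptor of lymphocytes, had its site in an intron at chr1:173629201-173629559, 84.8 kb from the nearest skin peak and in both standard lists. The Trib2 site was the farthest of the 10 from a skin peak, at 210 kb.

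Thymocyte-only sites were scattered, with a few dense places. Of bins of 100 kb, 2309 held 1 site, 403 held 2 and 57 held 3. The densest bin, at chr9:3000001-3100000, held 7 thymocyte-only and 14 shared sites. None of the 7 had a core or a standard SATB1 peak, 6 were in a urea SATB1 list and their AT content was 62.7% to 66.7%. The next, at chr11:3000001-3100000 over Sfi1 and Drg1, held 6 and 12, with fold enrichments of 1.70 to 2.01. Both bins are at the assembled beginning of their chromosome, where repeats abound in the mouse, and the part of repeats was not tested. The bin at chr9:72200001-72300000 over Zfp280d and Mns1 held 5 and 2, and 7 bins held 4 thymocyte-only sites. Among these, that at chr10:79600001-79700000, which includes Atp5d and Cirbp, held 4 shared sites and that at chr14:47800001-47900000 over Gch1, Wdhd1 and Socs4 held 1.

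By chromosome the thymocyte-only share ran from 12.8% on chromosome 4 (162 of 1270) to 23.4% on chromosome X (103 of 441). Chromosome X had the lowest density of shared sites, 2.03 per Mb, and of thymocyte-only sites, 0.618 per Mb, and its CTCF peaks had the lowest median fold enrichment, 6.86. Chromosome 11 had the highest densities, with 11.5 shared and 2.42 thymocyte-only sites per Mb.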

How the data were processed

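The 11 deposited peak lists were made by the authors, sample by sample, from reads aligned to NCBI37/mm9 (Bowtie2 2.3.1), with MACS2 2.2.7 as peak caller and 0.01 as its q-value limit. Per peak the deposited lists give a display score (not used), the fold enrichment, a ratio of signal to the sample's local background, significance as −log10 p and −log10 q, and the summit. They hold no counts, so depth is unknown from the lists and no counting interval is given. Precision for SATB1 is the spread of 2 lists. CTCF has 1 list per tissue. Samples without a list, among them a second thymocyte CTCF sample and Satb1-/- samples, were not analysed here.

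Overlap meant sharing at least 1 bp. Genes were GENCODE vM1 on NCBIM37. Place, AT content (100 bp on either side of the summit), motifs and overlaps were computed with Python 3.11.15, numpy 2.4.6, pandas and pysam. The overlap, peak distance and core motif steps were tested on simulated data, and the other steps were not. All results are descriptions without a test, because the members were chosen on the lists compared and sites are not replicates. The members, gene lists and rules were chosen with earlier results of these data known. All 79 listed T-cell genes were matched, Tespa1 by an older symbol in RefSeq. Named were the 10 strongest sites, the strongest site of each T-cell gene (25 by fold enrichment, with Cd5 and Notch3 beyond the rule, and some of the 25 not reported here), the TCR locus sites, 5 of the densest bins (3 and the first 2 of 7 tied) and 3 sites on either side of the rule. The searches for CAGATC and GAGG and for single core words were chosen after the sequences were seen. Alternatives were stricter q-values, distances and windows, given in the closing section.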

Additional observations from a re-analysis of the deposited data

How the results depend on the processing

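The number of thymocyte-only sites stayed between 3099 and 3424 under all alternative definitions. Leaving out regions with a peak in all lists could not change the members, since none has a skin CTCF peak. The shares at starts, with a core and on BURs stayed within binomial intervals under these definitions, and the median AT content within an interval of the median. These intervals count sites as independent and are not a spread of replicates, which CTCF lacks with 1 list per tissue. Other settings moved the following values. Starts within 2.5 kb took 27.9% of sites, and a core with 7 fixed bases was in 48.0%. Overlap with urea SATB1 was 0.905% with a −log10 q of at least 5 in both lists, 0.694% with no skin peak within 1 kb and 0.720% with the CTCF summit inside the SATB1 peak. T-cell genes with a site numbered 16 of 79 for the annotated span alone and 42 of 79 within 50 kb. The shares of all protein-coding genes were not computed at these 2 settings, so the counts do not show whether T-cell genes differ there.

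The mean overlap with standard SATB1 was 69.8% in the highest of 4 fold enrichment groups, and leaving out a replicate gave 25.3% to 48.3%. For urea SATB1 this gave 0.930% to 0.960%. The difference between thymocyte-only and shared sites in standard SATB1 overlap, an alternative chosen after seeing the data, ran from −5.29 to 1.81 points when a replicate was left out, so 1 list decides its sign. It was 7.43, 9.37, 13.8 and 10.3 points in these groups from the lowest up, −7.48 for sites over 1 kb from a start, and 6.62 and 4.05 for such sites in the upper 2 groups. The difference was taken within each list, and no model with a replicate block was fitted, since no result comes from a test. Lists without read depth and 1 CTCF list per tissue limit all values: weak skin sites may have been missed.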

Other observations

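Outside the rules for naming, and chosen after the values were seen, a few genes collected several thymocyte-only sites within 10 kb of their span. Il17ra, the receptor chain for interleukin 17, had 4 and no shared site over 20.5 kb. St8sia1, a sialyltransferase gene, had 5 thymocyte-only and 1 shared site over 143 kb, and Fstl4 had 4 and 1 over 424 kb. Elmo1 and Wwox had 4 and 5 beside 8 and 7 shared sites, in spans of 516 and 913 kb. Ano10 had 4 and 4. Sfi1, with 6 and 10, lies in the second densest bin at the beginning of chromosome 11.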
